A study of Mus musculus with 12 samples.

Results

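The Rab GTPases described here were the entries of the deposited gene table whose symbol was Rab followed by a number and at most 1 letter, which gave 51 of the 17419 genes. They were read in NIH-3T3 cells, an established line of immortalised mouse embryo fibroblasts, labelled wild type by the submitters, in a study of how the duration of metabolic labelling affects what nucleotide conversion sequencing measures. Cells received 4-thiouridine (4sU), a uridine analogue that is built into RNA as it is made, at 800 µM for 15, 30, 60, 90 or 120 min, and the sixth group received none (no4sU). Each of the 6 groups had 2 libraries, A and B, and all 12 came from the same line. Isolated RNA was treated with iodoacetamide (SLAM-seq), so that 4sU was read as cytosine and new RNA could be told from RNA made before labelling. Nothing in the labels says whether A and B were separate cultures, so p-values over libraries measure only the spread between these samples, which may be technical.

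Rab proteins are small GTPases that give membranes of the secretory and endocytic pathways their identity. Exchange factors load them with GTP and GTPase-activating proteins return them to the GDP form, while a prenyl anchor holds the active protein on the membrane, where effectors bind it and tether, move or fuse vesicles. Fibroblasts run constant secretion of matrix proteins and constant uptake and recycling of surface receptors, and each of these routes has its own Rab proteins.

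For every gene and library the table gave an estimated read count, and for every labelled library it also gave a new-to-total RNA ratio (NTR), the fraction of a gene's RNA estimated to have been made during labelling, which had no value in no4sU libraries. Counts totalled 9917025 to 13739380 per library. The fibroblast markers matched the label: 12 of 12 were above 1 CPM (a count scaled to its library's total), with a summed level of 18227.5 to 22141.4 CPM. Of the markers of other types, the summed level was at most 1.07 CPM for epithelium, 1.80 for endothelium, 7.80 for blood, 14.4 for neurons and 0.301 for muscle. The pair of no4sU libraries stood apart from the labelled pairs in their agreement. The measure was the SD of A minus B in log2 (CPM + 1), over the 36 members with a mean count of at least 100. It was 0.174 in no4sU and between 0.0868 and 0.120 in the 5 labelled groups.

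Of the 51 members, 43 had counts high enough to be tested. The other 8 were Rab33a, Rab39b, Rab26, Rab25, Rab3b, Rab42, Rab15 and Rab44, none of which averaged more than 6.33 counts per library. A further 7 members, Rab3d, Rab29, Rab36, Rab27a, Rab30, Rab20 and Rab3a, were tested but averaged under 100 counts. The remaining 36 averaged at least 100 counts, as did 9065 genes in the whole table, and NTR values are described for these 36. All 51 are annotated as protein coding in GENCODE M21.

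Levels per kilobase of the deposited gene length put Rab7 (ENSMUSG00000079477, chr6:87999106-88045270 in GRCm38, minus strand), the Rab of late endosomes and lysosomes, far above the rest at 205.5 CPM per kb (189.4 to 228 over 12 libraries). Next came Rab5c of early endosomes at 82.0 CPM per kb (75.2 to 88.5), Rab1b of the route from endoplasmic reticulum (ER) to Golgi at 78.3 (69.3 to 85.6), Rab34 at 75.4 (68.1 to 86.9) and Rab1a at 71.9 (67.3 to 75.4). The ranges of these 4 overlapped each other, and none reached the range of Rab7. Rab2a followed at 64.7 CPM per kb (58.4 to 70.1). At the low end of the 36 stood Rab27b at 1.48 CPM per kb (1.36 to 1.90) and Rab3c at 2.72 (2.3 to 3.12), both of regulated secretion, and Rab2b at 3.53 (3.10 to 3.92).

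**Figure D1:**
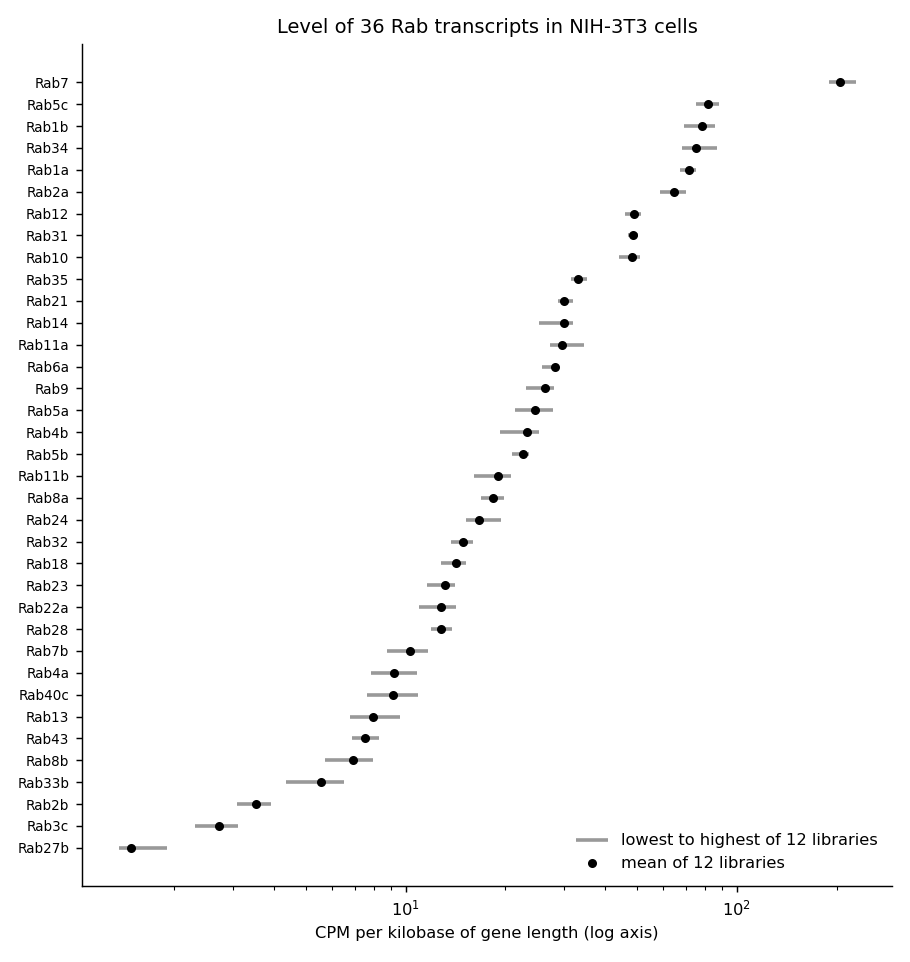
Level of each of the 36 Rab transcripts with a mean count of at least 100, in CPM per kilobase of gene length on a log axis. Points are means of 12 libraries and bars run from the lowest to the highest library; Rab7 lies at 205.5 and Rab27b at 1.48 CPM per kb.

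New RNA made up a widely different part of each Rab transcript. After 120 min of labelling the NTR averaged over libraries A and B ran from 0.132 for Rab13 to 0.901 for Rab40c. It was above 0.5 for 9 members, below 0.25 for 13 and between these bounds for 14. The median over the 36 members at 120 min was 0.287 ± 0.0213 (SD, n = 2), beside 0.354 ± 0.00523 over the 9065 genes with the same count minimum. The members' median was 0.00805 ± 0.00255 after 15 min, 0.0489 ± 0.00527 after 30, 0.122 ± 0.00544 after 60 and 0.215 ± 0.0292 after 90 (each n = 2). The median over all those genes was 0.0101 ± 0.00474, 0.0521 ± 0.0012, 0.155 ± 0.0041 and 0.244 ± 0.014 at the same durations. Within each of the 10 labelled libraries the members' median lay below that of all genes, a description over genes without a test. The library values of the 2 medians did not overlap at 60 and 120 min and overlapped at 15, 30 and 90 min, and the members' median at 15 min was 0.0153 by the posterior mean.

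Rab3a, outside the 36 members for its low count, was listed at an NTR of 1 in both 120 min libraries (90% intervals 0.8272 to 0.9935 and 0.8695 to 0.9966). Among the 36, the highest mean NTR at 120 min belonged to Rab40c (ENSMUSG00000025730, chr17:25882114-25919727 in GRCm38, minus strand), which carries a SOCS box and recruits a ubiquitin ligase. Its NTR was 0.0114 and 0.0078 after 15, 0.13 and 0.0912 after 30, 0.411 and 0.327 after 60, 0.713 and 0.713 after 90 and 0.859 and 0.943 after 120 min, with library A given before library B here and in all series that follow. Rab33b (ENSMUSG00000027739, chr3:51483920-51496232 in GRCm38, plus strand), a Golgi Rab that also binds the autophagy protein Atg16l1, had an NTR of 0.0113 and 0.0303 after 15, 0.227 and 0.232 after 30, 0.431 and 0.657 after 60, 0.814 and 0.667 after 90 and 0.853 and 0.917 after 120 min. Both transcripts were above 0.85 in each 120 min library, and their 90% intervals overlapped there (0.770 to 0.927 for Rab40c and 0.758 to 0.923 for Rab33b in library A). Rab7b (ENSMUSG00000052688, chr1:131688695-131715439 in GRCm38, plus strand), which acts between endosomes and the trans-Golgi network, had an NTR of 0.0449 and 0.0275 after 15, 0.153 and 0.167 after 30, 0.318 and 0.316 after 60, 0.523 and 0.488 after 90 and 0.698 and 0.759 after 120 min. For Rab9, which returns mannose 6-phosphate receptors from late endosomes to the Golgi, the NTR was 0.0011 and 0.0006 after 15, 0.0885 and 0.0798 after 30, 0.315 and 0.307 after 60, 0.446 and 0.388 after 90 and 0.682 and 0.634 after 120 min. Rab9 was the lowest of these 4 at 15 min and still among the 4 highest of the 36 members at 120 min.

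At the other end stood Rab13 (ENSMUSG00000027935, chr3:90213695-90226385 in GRCm38, plus strand), which acts in delivery to cell junctions. The NTR of Rab13 was 0 and 0 after 15, 0 and 0 after 30, 0.0769 and 0.0537 after 60, 0.0646 and 0.094 after 90 and 0.131 and 0.132 after 120 min. Rab4b, a Rab of fast receptor recycling, had an NTR of 0.0053 and 0.0016 after 15, 0.0181 and 0 after 30, 0.0333 and 0.0608 after 60, 0.08 and 0.0745 after 90 and 0.136 and 0.164 after 120 min. Rab13 was listed at 0 in all 4 libraries up to 30 min, and Rab4b in 1 of them. Rab5c had an NTR of 0.0077 and 0.0071 after 15, 0.0225 and 0.0276 after 30, 0.0532 and 0.0652 after 60, 0.111 and 0.104 after 90 and 0.162 and 0.146 after 120 min. Rab18, found on lipid droplets and the ER, had an NTR of 0.0049 and 0 after 15, 0.0349 and 0.0305 after 30, 0.0832 and 0.0734 after 60, 0.109 and 0.0942 after 90 and 0.158 and 0.151 after 120 min. In all 4 the 120 min libraries were the highest, and none of them exceeded 0.164. The next in the order, Rab11a, was at 0.156 at 120 min, so the lower end of the order is not separated from its neighbours. Over the whole order at 120 min, the 90% intervals of neighbours overlapped in both libraries for 32 of 35 neighbouring pairs.

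**Figure D2:**
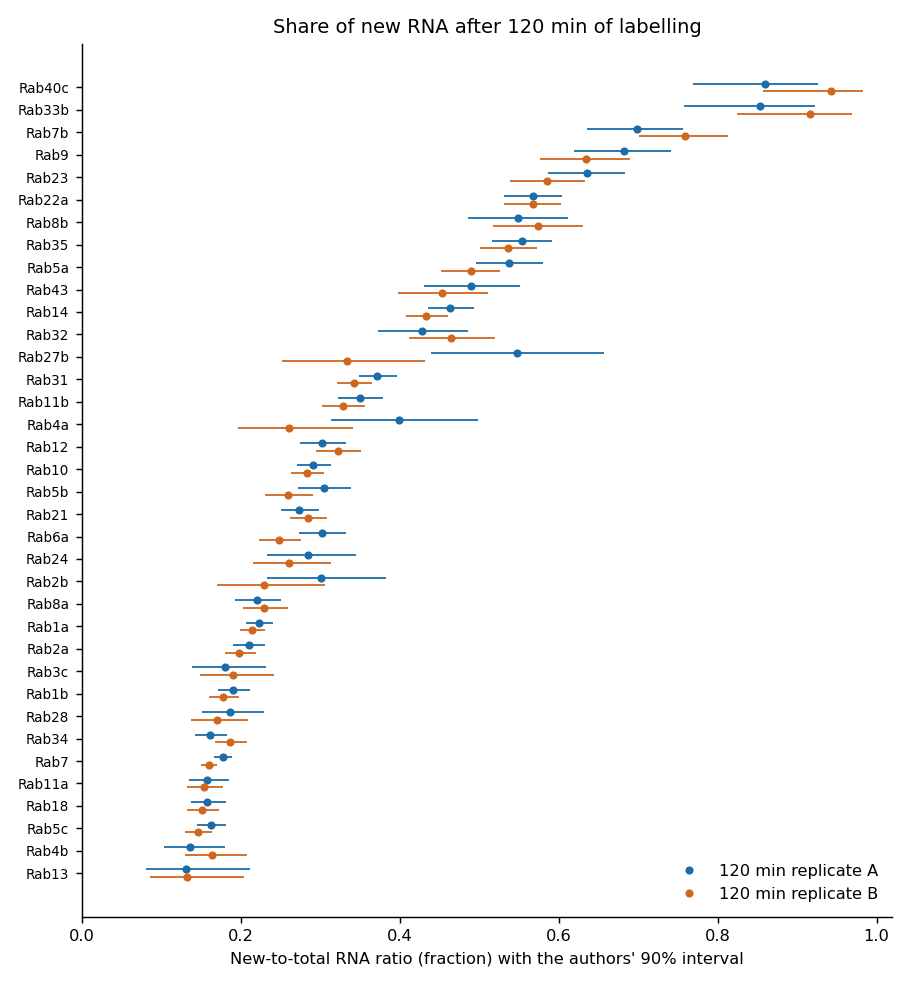
New-to-total ratio of the 36 Rab transcripts in the 120 min libraries, replicate A in blue and replicate B in orange, with the authors' 90% intervals as bars. The order runs from Rab40c (mean 0.901) to Rab13 (mean 0.132), and most neighbours overlap.

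The order was similar at other durations. Across the 36 members, Spearman's rho with the NTR at 120 min was 0.887 for the 30 min values, 0.968 for 60 and 0.965 for 90, as a description over genes measured in the same libraries. The mean NTR was higher at each longer duration in 35 of 36 members, with Rab13, listed at 0 at 15 and 30 min, as the exception. Rab32, a Rab of melanosomes and related organelles, had a different course: its NTR was 0.175 and 0.117 after 15, 0.205 and 0.209 after 30, 0.288 and 0.31 after 60, 0.351 and 0.316 after 90 and 0.428 and 0.464 after 120 min. At 15 min its mean of 0.146 was the highest of the 36, ahead of Rab27b at 0.0487, and 27 of the 9065 genes were higher. By 120 min Rab32 ranked 12 among the members, with a mean of 0.446.

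Turned into an apparent half-life (the natural log of 2 times the labelling time, over the negative natural log of 1 minus NTR, with no term for cell growth), the median over members was 247 ± 22.2 min from the 120 min libraries (SD, n = 2). It was 260.5 ± 40.0 min from those of 90, 319 ± 15.8 from 60, 399 ± 69.8 from 30 and 597 ± 47.9 from 15 min. Over all genes it was 197.7, 224, 247, 368 and 515 min in the same order. The apparent half-life of the members thus shortened as labelling was extended, as did that over all genes. At 15 min only 17 members in library A and 12 in library B had an NTR between 0.01 and 0.99 and entered the median. For single members at 120 min it was 35.8 ± 9.42 min for Rab40c and 38.4 ± 7.02 min for Rab33b, against 499 ± 39.7 min for Rab5c and 589.5 ± 3.40 min for Rab13 (n = 2 each).

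By role, the median NTR at 120 min was 0.242 ± 0.0285 over 8 ER and Golgi members, 0.326 ± 0.0172 over 6 of early endosomes, 0.335 ± 0.0569 over 6 of recycling endosomes, 0.287 ± 0.00566 over 7 of exocytosis and surface delivery, and 0.359 ± 0.00453 over 6 of late endosomes, lysosomes and related organelles (SD, n = 2 libraries). It was 0.611 ± 0.0354 over Rab23, Rab28 and Rab40c, which fall outside these routes. That median is the value of Rab23 itself, with Rab28 at 0.178 and Rab40c at 0.901. Members of 1 role could lie far apart: among the ER and Golgi members Rab33b was at 0.885 and Rab18 at 0.155, and among the late endosome members Rab7b was at 0.729 and Rab7 at 0.168.

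AU-rich and Pumilio-type motifs are known features of 3′ UTRs that bind factors acting on RNA decay, so sites of each are shown for members that differ in NTR. The motifs searched were TATTTAT and TGTANATA, on the transcript strand only, in 1 GENCODE M21 coding transcript per gene (GRCm38, the reference sequence and not one read from these cells). The capitals mark the motif in each 30-base stretch. Rab33b and Rab40c, with TATTTAT, had an NTR above 0.85 at 120 min, and Rab11a and Rab4b, also with TATTTAT, of at most 0.156. Of the members shown with TGTANATA, Rab5a had an NTR of 0.5135, Rab14 of 0.449 and Rab2a of 0.204. Not shown are a TATTTAT match in Rab2a and another TGTANATA match in Rab14.
Rab33b, TATTTAT, chr3:51495444-51495473, plus strand: tttcattttagTATTTATtaatcaaaacat
Rab40c, TATTTAT, chr17:25883343-25883372, minus strand: aggctccccttTATTTATatggagaacatt
Rab5a, TGTANATA, chr17:53507210-53507239, plus strand: ttcagctgtacTGTAAATAgagtactgcat
Rab14, TGTANATA, chr2:35180221-35180250, minus strand: atctaaatattTGTAAATAaagtacctgta
Rab2a, TGTANATA, chr4:8606947-8606976, plus strand: catttgctttcTGTATATAtagtttaataa
Rab11a, TATTTAT, chr9:64715393-64715422, minus strand: aagatactgtcTATTTATaaattgctactt
Rab4b, TATTTAT, chr7:27168471-27168500, minus strand: tgcaagtctgtTATTTATtacctggaggcc

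Matches to either motif were present in members above 0.5 and in members below 0.25. TATTTAT was found anywhere in the 3′ UTR of 4 of 9 members with an NTR above 0.5, 6 of 14 between the bounds and 5 of 13 below 0.25. TGTANATA was found in 4 of 9, 9 of 14 and 3 of 13. For matches anywhere in the 3′ UTR no share over all genes was counted. The classes also differed in length, with a median 3′ UTR of 2436 bases above 0.5, 2210 between and 1275 below 0.25. In the last 500 bases of the 3′ UTR, TATTTAT was in 4 of 31 members with a 3′ UTR that long (12.9%; Rab11a, Rab12, Rab1a and Rab43), beside 15.7% of 6433 genes. TGTANATA was there in 4 of 31 (12.9%; Rab14, Rab22a, Rab5a and Rab6a), beside 14.6% of those genes. No TATTTAT match shared a base with a TGTANATA match among the 50 found in the members. Across the 36 members, Spearman's rho of 3′ UTR length with NTR at 120 min was 0.360 (0.297 over 8957 genes), and that of the percent of T in the transcript was 0.0808 (0.0392), as descriptions. A match says only that these letters are present.

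Members that share a number, most of them close paralogues (Rab7 and Rab7b less so), were compared within the same library. The comparison covered all 9 pairs of which both members averaged at least 100 counts, over the 8 libraries from 30 to 120 min, by an exact two-sided sign-flip permutation test of the mean difference in logit NTR. In 8 of 9 pairs 1 member had the higher NTR in 8 of 8 libraries, which gives the smallest p this test allows (exact p = 0.00781, adjusted over the 9 pairs 0.00879). Rab5a against Rab5b did not pass on this logit scale. No share was counted for pairs of other genes, so 8 of 9 cannot be read as particular to Rab genes. A small difference of steady sign also reaches this p: for Rab1a against Rab1b the mean difference in NTR itself was 0.02. The test counts each of the 8 libraries as a separate unit, although A and B of a duration may not be separate cultures.

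The Rab7 pair differed most. Rab7 had an NTR of 0.0092 and 0.0048 after 15, 0.0285 and 0.0264 after 30, 0.0724 and 0.073 after 60, 0.124 and 0.117 after 90 and 0.177 and 0.16 after 120 min. Against the values of Rab7b given above, Rab7 was lower in all 8 libraries, with a mean logit difference (Rab7 minus Rab7b) of -2.07 ± 0.357 (SD over 8 libraries). Rab7 also stood higher in level, at 205.5 against 10.3 CPM per kb. In the Rab4 pair, which serves fast recycling to the surface, Rab4a had an NTR of 0.0097 and 0.0158 after 15, 0.0769 and 0.113 after 30, 0.0798 and 0.12 after 60, 0.241 and 0.253 after 90 and 0.4 and 0.26 after 120 min. Rab4a was above Rab4b in 8 of 8 libraries with a mean logit difference (Rab4a minus Rab4b) of 1.60 ± 1.36, the widest spread of the 9 pairs. Rab4b was listed at 0 in 30 min library B, where it entered the test at the lower limit of 0.001.

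The Rab5 genes, which drive fusion of early endosomes, were 3 and gave 3 pairs. Rab5a had an NTR of 0.01 and 0 after 15, 0.0349 and 0.0691 after 30, 0.209 and 0.205 after 60, 0.402 and 0.359 after 90 and 0.538 and 0.489 after 120 min. Rab5b had an NTR of 0.0121 and 0.006 after 15, 0.0703 and 0.067 after 30, 0.124 and 0.126 after 60, 0.239 and 0.156 after 90 and 0.304 and 0.259 after 120 min. Rab5a and Rab5b were each above Rab5c in all 8 libraries, with mean logit differences of 1.38 ± 0.461 and 0.836 ± 0.212. Rab5a was above Rab5b in 7 of 8 libraries by 0.544 ± 0.619 (exact p = 0.0547, adjusted 0.0547), with 30 min library A as the exception. Without that library all 9 pairs passed the threshold, and with both 15 min libraries added Rab5a against Rab5c had an adjusted exact p of 0.0502 and Rab5a against Rab5b of 0.501. On the scale of NTR itself Rab5a against Rab5b passed, with a mean difference of 0.12 (sign-flip test, adjusted exact p = 0.0234). The miss on the logit scale does not show that Rab5a and Rab5b were renewed alike: at 120 min their mean NTR was 0.5135 and 0.282.

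In the Rab8 pair, of exocytosis and cilium formation, Rab8a had an NTR of 0 and 0.0033 after 15, 0.0241 and 0.0198 after 30, 0.0969 and 0.0982 after 60, 0.154 and 0.114 after 90 and 0.22 and 0.23 after 120 min. Rab8b had an NTR of 0.036 and 0.0107 after 15, 0.0769 and 0.134 after 30, 0.255 and 0.201 after 60, 0.349 and 0.298 after 90 and 0.549 and 0.574 after 120 min. Rab8b was the higher in 8 of 8 libraries (Rab8a minus Rab8b, logit, -1.31 ± 0.362). In the Rab11 pair, of the recycling endosome, Rab11a had an NTR of 0.003 and 0.002 after 15, 0.0174 and 0.0247 after 30, 0.0675 and 0.0631 after 60, 0.136 and 0.0828 after 90 and 0.158 and 0.154 after 120 min. Rab11b had an NTR of 0.0253 and 0.0124 after 15, 0.0744 and 0.0509 after 30, 0.125 and 0.137 after 60, 0.233 and 0.199 after 90 and 0.35 and 0.328 after 120 min. Rab11b was the higher in 8 of 8 libraries (Rab11a minus Rab11b, logit, -0.939 ± 0.278).

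The differences of the ER and Golgi pairs were smaller. Rab2a, which acts at the ER-Golgi intermediate compartment, had an NTR of 0.0062 and 0.0043 after 15, 0.0351 and 0.0214 after 30, 0.068 and 0.104 after 60, 0.145 and 0.132 after 90 and 0.21 and 0.198 after 120 min. Its paralogue Rab2b had an NTR of 0.0076 and 0.0086 after 15, 0.0371 and 0.0367 after 30, 0.0811 and 0.118 after 60, 0.254 and 0.165 after 90 and 0.301 and 0.229 after 120 min. Rab2b was the higher in each of the 8 libraries (Rab2a minus Rab2b, logit, -0.320 ± 0.228). The test did not use the 90% intervals. Those of Rab2a and Rab2b were separate in library A at 90 and 120 min and overlapped in the rest of the 8. In 120 min library B they ran from 0.1797 to 0.2185 for Rab2a and from 0.1706 to 0.3055 for Rab2b. Rab1a, of transport from ER to Golgi, had an NTR of 0.0047 and 0.0014 after 15, 0.0392 and 0.0383 after 30, 0.0796 and 0.101 after 60, 0.173 and 0.138 after 90 and 0.223 and 0.214 after 120 min. Its paralogue Rab1b had an NTR of 0.0138 and 0.0124 after 15, 0.0375 and 0.0341 after 30, 0.0767 and 0.0899 after 60, 0.129 and 0.111 after 90 and 0.191 and 0.178 after 120 min. Rab1a was the higher in 8 of 8 libraries from 30 to 120 min by 0.17 ± 0.106, but lower in both 15 min libraries, and with these added the mean difference was -0.192 (adjusted exact p = 0.537). The 90% intervals of Rab1a and Rab1b were separate in 90 min library A and 120 min library B. They overlapped in the rest of the 8.

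**Figure D3:**
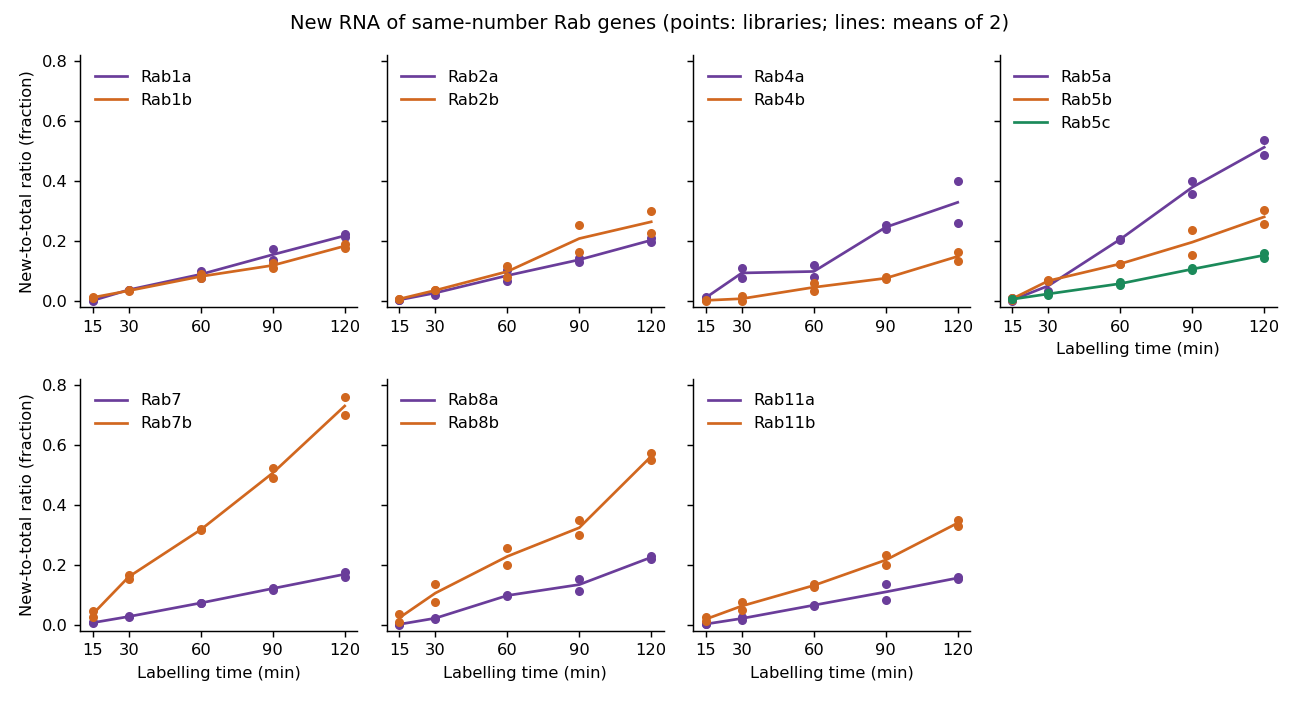
New-to-total ratio (fraction) against labelling time in min for the 7 sets of same-number Rab genes. Points are libraries and lines join the means of 2; Rab7b (0.729 at 120 min) lies farthest above its paralogue, and Rab1a and Rab1b (0.219 and 0.184) lie close together.

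Reads of near-identical or overlapping genes limit these comparisons. Of the 36 members, 31 had a count that was not whole in at least 1 library, so reads may have been divided between genes. Rab4b shares 1280 of 1970 exon bases with Gm21983 on the same strand, and Rab2b shares 2469 of 4163 with Gm43766 on the opposite strand. Strand could not separate reads from the bases that Rab4b shares with Gm21983. For Rab2b it could, but none of the sources used here says whether counting used strand. The values of both genes are therefore uncertain. Of the 51 members, 20 share exon bases with another gene.

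No Rab gene passed the test of total counts against unlabelled cells before 120 min. CPM is relative to the library's scaled total, so less RNA per cell and fewer cells cannot be told apart, and a fall in all RNA would not show. By edgeR's quasi-likelihood test on 11564 genes, with Benjamini-Hochberg adjustment over all of them, 0 of 43 members passed an adjusted p of 0.05 at 15, 30, 60 or 90 min against no4sU. Of all genes 0% passed after 15 min, 0% after 30, 0.0173% after 60 and 1.39% after 90. An unadjusted p under 0.05 was reached by 1, 2, 4 and 4 members, and DESeq2 called 0 at each time (1, 0, 1 and 2 unadjusted). For the fits without 1 library that follow, the share over all genes was not counted, so their counts cannot be set against the shares above. Without no4sU library A, 1, 0, 1 and 7 members were called at these times, and without no4sU library B 2, 2, 1 and 2.

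After 120 min, 4 of 43 members (9.3%) differed from no4sU, beside 14.2% of all tested genes. Rab7 and Rab34 were higher (5.43% of all genes were) and Rab14 and Rab33b lower (8.78%). The log2 change was 0.24 (SE 0.0476, adjusted p = 0.00286) for Rab7, 0.21 (SE 0.0661, adjusted p = 0.0417) for Rab34, -0.24 (SE 0.0577, adjusted p = 0.00848) for Rab14 and -0.40 (SE 0.113, adjusted p = 0.0226) for Rab33b. DESeq2 called 2 members. The share over all genes was not counted for DESeq2 or for the fits with fewer libraries that follow, so these counts cannot be set against the 14.2%. The count rested on single libraries: it was 13 without no4sU library A, 1 without 120 min library A and 2 without 120 min library B, and 0 when only the 2 groups compared were fitted. Scaled by library size alone, 1 member was higher and 4 were lower, beside 203 higher and 1684 lower of the 11564 genes tested. The call of Rab34 was lost when any of 11 libraries, all but no4sU library A, was left out (adjusted p 0.0545 to 0.296). That of Rab14 was lost without 120 min library A (adjusted p = 0.126), and that of Rab33b without no4sU library B (0.0728), 120 min library A (0.14) or 120 min library B (0.095).

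Between 120 and 15 min, which both carried 4sU, 7 of 43 members (16.3%) differed, beside 19.3% of all tested genes. Rab13, Rab34, Rab5c and Rab7 were higher (7.93% of all genes were) and Rab33b, Rab14 and Rab23 lower (11.3%). DESeq2 called 4. The median change over the 43 members was 0.0131 on the log2 scale, beside 0.0057 over all genes. Scaled by library size alone, 0 members were higher and 6 lower, beside 426 higher and 1867 lower of the 11564 genes tested. The median change over all genes was then -0.0513. The count was 15 when either no4sU library was left out, 1 when either 15 min library was, 2 when either 120 min library was, and 16 when only the 2 groups were fitted.

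The slope of the log2 count on labelling time used all 10 labelled libraries and no no4sU library. It passed the threshold in 17 of 43 members (39.5%), beside 37.8% of 11526 genes. Of these, 9 rose with time (18.3% of all genes rose) and 8 fell (19.5%). The median slope over the members was 0.0012 on the log2 scale per hour, beside 0.0036 over all genes. DESeq2 called 14. The count was 10 when either 120 min library was left out and 10 with the no4sU libraries added at time 0, and by library size alone 5 rose and 10 fell. By that scaling 1172 of the 11526 genes tested rose and 3031 fell. In the main fit, the share of Rab members with a called slope was near that of all genes.

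**Figure D4:**
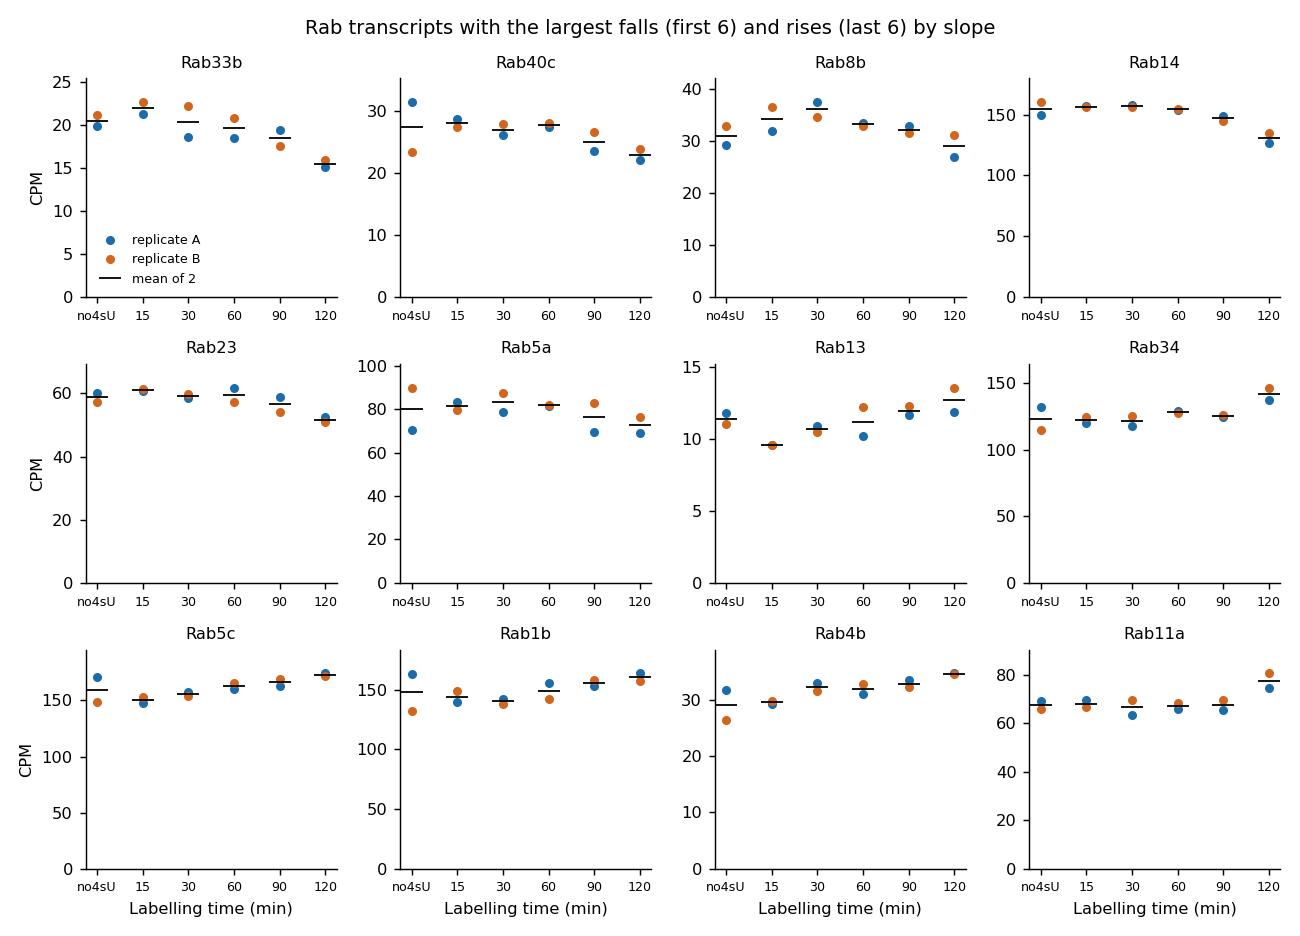
CPM in each of the 12 libraries for the 6 Rab transcripts with the largest falls (Rab33b to Rab5a) and the 6 with the largest rises (Rab13 to Rab11a) by slope among those past the threshold, replicate A in blue and replicate B in orange, with the mean of 2 as a bar. The steps are small: Rab33b goes from 21.3 and 22.7 CPM at 15 min to 15.1 and 15.9 at 120 min.

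Among the ER and Golgi members, 3 of 9 tested rose with labelling time (Rab1b, Rab18 and Rab1a) and 1 fell (Rab33b). Over all genes 18.3% rose and 19.5% fell, and no role, here or below, was tested against these shares. Rab33b stood at 19.8 and 21.2 CPM in no4sU, then 21.3 and 22.7 after 15, 18.6 and 22.1 after 30, 18.4 and 20.8 after 60, 19.4 and 17.6 after 90 and 15.1 and 15.9 after 120 min. Both 120 min libraries were below the other 10. Its slope was -0.25 log2 per hour (SE 0.0528, adjusted p = 0.00021), called whichever library was left out, and its change from 15 to 120 min -0.50 (SE 0.113, adjusted p = 0.00485), the latter lost without 15 min library B (adjusted p = 0.0526). Rab33b shares 661 of 3538 exon bases with Gm38160 on the opposite strand. Rab1b stood at 164 and 133 CPM in no4sU, then 139.5 and 149 after 15, 142 and 138 after 30, 156 and 142 after 60, 153 and 158 after 90 and 164 and 157 after 120 min. The no4sU libraries of Rab1b spanned nearly the whole range of the labelled ones. Its slope was 0.10 (SE 0.0243, adjusted p = 0.000726), and no omission of 1 library removed the call. Rab1a (0.06, adjusted p = 0.0195) and Rab18 (0.08, adjusted p = 0.033) had smaller slopes, and lost their calls without 3 and 6 of the 10 libraries in turn (adjusted p 0.0528 to 0.0686 and 0.0505 to 0.179). For Rab1a these were 15 min A and both of 120 min, and for Rab18 both of 15 min, 30 min A, 90 min A and both of 120 min.

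Among the 7 early endosome members, Rab5c rose and Rab5a and Rab22a fell. Rab5c stood at 170.5 and 148 CPM in no4sU, then 148 and 153 after 15, 157 and 154 after 30, 160.5 and 166 after 60, 163 and 169 after 90 and 174 and 172 after 120 min. The 120 min pair was above all 10 others. Its slope was 0.11 (SE 0.0219, adjusted p = 0.000147), called whichever library was left out, and its change from 15 to 120 min 0.20 (SE 0.0631, adjusted p = 0.0326), a call lost when any of the 4 libraries was left out (adjusted p 0.0937 to 0.213). Rab5a stood at 70.4 and 89.8 CPM in no4sU, then 83.3 and 79.5 after 15, 78.7 and 87.5 after 30, 81.5 and 82 after 60, 69.5 and 82.8 after 90 and 69.1 and 76.4 after 120 min. Its 120 min libraries were below those of 15, 30 and 60 min and overlapped 90 min and no4sU. Its slope was -0.10 (SE 0.0327, adjusted p = 0.0121), a call that rested on 120 min library A. Rab22a, of early endosomes and their recycling tubules, had a slope of -0.09 (SE 0.0313, adjusted p = 0.0202), not called without 15 min A (adjusted p = 0.151), 30 min A (0.0513) or 90 min B (0.0553). Rab31, Rab21, Rab5b and Rab20 did not pass.

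Of 6 tested recycling members, Rab4b and Rab11a rose and Rab14, which links endosomes and the Golgi, fell. Rab14 stood at 149 and 160.4 CPM in no4sU, then 157 and 156 after 15, 158 and 156 after 30, 154 and 155 after 60, 149 and 144 after 90 and 126 and 135 after 120 min. The 8 labelled libraries up to 90 min lay between 144 and 158 CPM and both 120 min libraries were below them. Its slope was -0.14 (SE 0.0244, adjusted p = 1.3e-05), called whichever library was left out, and its change from 15 to 120 min -0.26 (SE 0.0579, adjusted p = 0.00474), lost without 15 min A (adjusted p = 0.056) or 120 min A (0.0813). Rab11a stood at 69.4 and 66 CPM in no4sU, then 69.6 and 66.7 after 15, 63.7 and 69.8 after 30, 65.9 and 68.5 after 60, 65.4 and 69.7 after 90 and 74.4 and 80.7 after 120 min. Up to 90 min Rab11a stayed between 63.7 and 69.9 CPM, and both 120 min libraries were above all others. Its slope of 0.10 (SE 0.0331, adjusted p = 0.0158) fell to 0.04 without 120 min library B (adjusted p = 0.369). Rab4b stood at 31.7 and 26.5 CPM in no4sU, then 29.4 and 29.9 after 15, 33 and 31.5 after 30, 31.1 and 32.9 after 60, 33.6 and 32.2 after 90 and 34.8 and 34.7 after 120 min. Rab4b was highest in the 120 min pair. Its slope of 0.10 (SE 0.0393, adjusted p = 0.037) was not called when any 15 or 120 min library was left out (adjusted p 0.0846 to 0.119).

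Of 10 tested members of exocytosis and surface delivery, Rab13 rose and Rab8b fell. Rab13 stood at 11.8 and 11 CPM in no4sU, then 9.58 and 9.58 after 15, 10.9 and 10.5 after 30, 10.2 and 12.2 after 60, 11.6 and 12.3 after 90 and 11.9 and 13.6 after 120 min. Both 15 min libraries were the lowest of the 12, and the no4sU libraries lay within the range of the longer durations. Its slope was 0.21 (SE 0.0636, adjusted p = 0.00732) and its change from 15 to 120 min 0.42 (SE 0.132, adjusted p = 0.032). The slope was not called without 120 min library B (adjusted p = 0.0771), and the change not without 15 min A, 15 min B or 120 min B (adjusted p 0.129 to 0.266). Rab8b stood at 29.3 and 32.9 CPM in no4sU, then 31.9 and 36.7 after 15, 37.6 and 34.7 after 30, 33.6 and 33 after 60, 32.9 and 31.6 after 90 and 26.9 and 31.2 after 120 min. The 120 min libraries of Rab8b were below the 8 earlier labelled ones and overlapped no4sU. Its slope of -0.15 (SE 0.043, adjusted p = 0.00581) was not called without 120 min library A (adjusted p = 0.0902). Rab8a, Rab10, Rab12, Rab3c and Rab27b were among those that did not pass.

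Of 8 tested late endosome and lysosome members, Rab7 and Rab34 rose and Rab9 fell. Rab7 stood at 409 and 414 CPM in no4sU, then 433 and 435 after 15, 425 and 439 after 30, 447 and 436 after 60, 453 and 463 after 90 and 493 and 478 after 120 min. Both 120 min libraries were above the other 10, and both no4sU libraries were the lowest. Its slope was 0.09 (SE 0.0185, adjusted p = 0.000104), called whichever library was left out, and its change from 15 to 120 min 0.16 (SE 0.0476, adjusted p = 0.0219), lost when any of the 4 libraries was left out (adjusted p 0.0813 to 0.14). Rab34, which places lysosomes and acts in cilium formation, stood at 132 and 115 CPM in no4sU, then 120.2 and 124 after 15, 118 and 126 after 30, 129 and 128 after 60, 125 and 126 after 90 and 137 and 146 after 120 min. The 120 min libraries of Rab34 were above all others. Its slope was 0.11 (SE 0.0262, adjusted p = 0.000794) and was 0.07 without 120 min library B (adjusted p = 0.0531). Its change from 15 to 120 min was 0.21 (SE 0.0664, adjusted p = 0.0288), also lost when any of the 4 libraries was left out (adjusted p 0.0513 to 0.255). Rab9 stood at 40.4 and 39.8 CPM in no4sU, then 37 and 40.1 after 15, 40.2 and 39.4 after 30, 39.1 and 38 after 60, 36.5 and 37.8 after 90 and 33.5 and 35.4 after 120 min. Rab9 was lowest in the 120 min pair. Its slope was -0.10 (SE 0.0376, adjusted p = 0.0322), lost without 15 min B, 30 min A or either 120 min library (adjusted p 0.0666 to 0.176).

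The remaining members to pass were Rab40c and Rab23, a negative regulator of Hedgehog signalling at the cilium. Rab40c stood at 31.5 and 23.5 CPM in no4sU, then 28.8 and 27.5 after 15, 26.2 and 27.9 after 30, 27.4 and 28.2 after 60, 23.6 and 26.6 after 90 and 22.1 and 23.9 after 120 min. Rab40c was lowest at 120 min among the labelled groups except for 90 min library A, and its no4sU libraries differed from each other more than any labelled pair did. Its slope of -0.15 (SE 0.0451, adjusted p = 0.00648) was not called without 120 min library A (adjusted p = 0.0611). Rab23 stood at 60.1 and 57.4 CPM in no4sU, then 60.6 and 61.4 after 15, 58.5 and 59.9 after 30, 61.8 and 57.2 after 60, 59 and 54.1 after 90 and 52.4 and 51 after 120 min. Rab23 was lower in both 120 min libraries than in the other 10. Its slope was -0.12 (SE 0.0319, adjusted p = 0.00194), called whichever library was left out. Its change from 15 to 120 min was -0.24 (SE 0.0719, adjusted p = 0.0246), lost when any of the 4 libraries was left out (adjusted p 0.0869 to 0.153).

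The direction of a member's slope followed its NTR. All 13 members with an NTR below 0.25 at 120 min had a slope above 0, with a median of 0.0928 log2 per hour (0.0865 over all genes in that range). All 9 with an NTR above 0.5 had a slope below 0, with a median of -0.102 (-0.117 over all genes). Of the 14 between, 8 were above 0. Across the 36 members, Spearman's rho of slope with NTR at 120 min was -0.916, beside -0.778 over 9065 genes. For the change from 15 to 120 min rho was -0.895, beside -0.763. These are descriptions: slope and NTR come from the same libraries and the same reads, and the 120 min libraries enter both. The sign of these slopes is relative to the scaling. By library size alone 5 members rose and 10 fell past the threshold, beside 1172 and 3031 of all genes tested. The median slope of all genes was then -0.0307 against 0.0036.

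**Figure D5:**
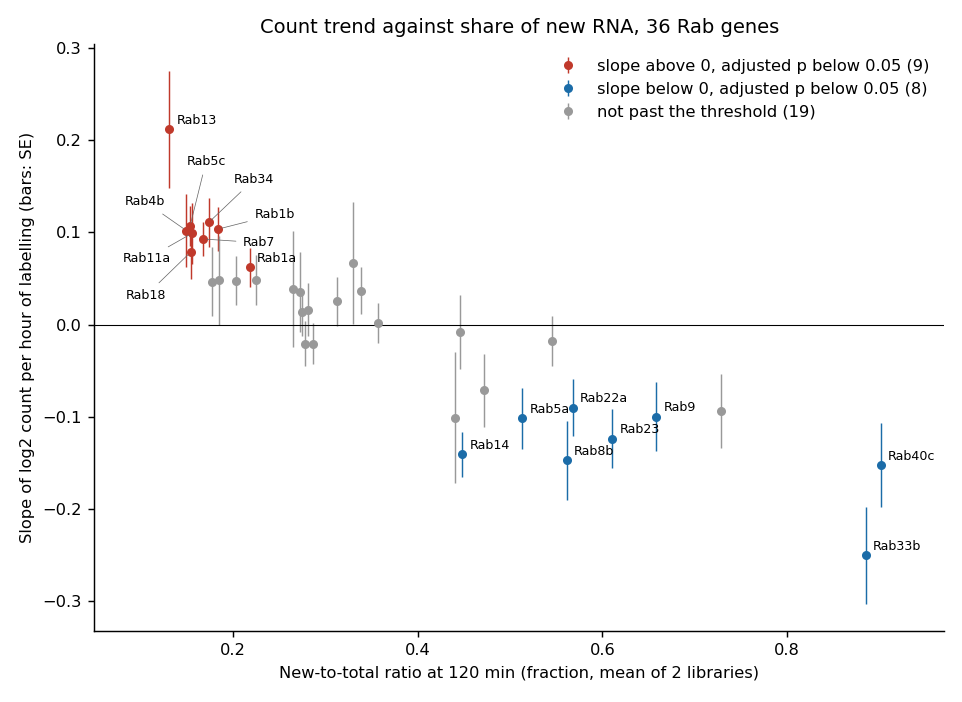
Slope of the log2 count per hour of labelling (with SE bars) against the mean new-to-total ratio of the 2 libraries at 120 min, for 36 Rab genes. The 9 members past the threshold with a slope above 0 all lie below an NTR of 0.25, and the 8 with a slope below 0 lie from 0.449 (Rab14) to 0.901 (Rab40c).

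The proteins that act on Rab GTPases were taken from 4 lists, of which 110 genes were tested. Between 120 and 15 min 3 of the 110 were higher and 14 lower, with a median change of -0.0214 log2, beside 7.93% higher, 11.3% lower and a median of 0.0057 over all genes. By slope 9 rose and 25 fell, with a median of -0.0235 per hour (18.3% and 19.5% of all genes). Of 39 exchange factors, 2 were higher and 7 lower at 120 min, and 4 rose and 10 fell by slope. Of 32 GTPase-activating proteins, 1 was higher and 4 lower, and 2 rose and 7 fell by slope. Of 32 effectors, 0 were higher and 3 lower (Rab11fip1, Rbsn and Rabep1), and by slope 1 rose (Golga2) and 8 fell. Of 7 genes of prenylation and membrane recycling 0 differed between 120 and 15 min, and by slope Gdi2 (0.07, SE 0.02, adjusted p = 0.00813) and Rabac1 (0.16, SE 0.0381, adjusted p = 0.00113) rose. These few were named after their values were seen. Median NTR at 120 min was 0.437 ± 0.0219 for 34 exchange factors, 0.397 ± 0.00781 for 30 GTPase-activating proteins, 0.384 ± 0.00576 for 30 effectors and 0.225 ± 0.0193 for 7 prenylation genes (SD, n = 2).

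Of the 14 list genes past the threshold as lower at 120 than at 15 min, the largest falls were of Dennd6a, Tbc1d25 and Rabgef1. Dennd6a, an exchange factor for Rab14, stood at 11.6 and 15.2 CPM in no4sU, then 14.2 and 14.8 after 15, 13.6 and 16.3 after 30, 14.7 and 13.1 after 60, 11.4 and 9.85 after 90 and 9.76 and 8.7 after 120 min. The 120 min pair was the lowest of all, and the change was -0.66 (SE 0.15, adjusted p = 0.00495; 0.082 without 120 min library B). Tbc1d25, a GTPase-activating protein of Rab33b, stood at 13.7 and 11.4 CPM in no4sU, then 15.1 and 13 after 15, 11.7 and 11.7 after 30, 11.4 and 11.4 after 60, 11.2 and 13.6 after 90 and 10.8 and 8.7 after 120 min. The 120 min pair was again lowest, with a change of -0.54 (SE 0.145, adjusted p = 0.0128; 0.161 without 15 min library A and 0.19 without 120 min library B). Rabgef1, an exchange factor for Rab5, stood at 26.7 and 27.3 CPM in no4sU, then 25.7 and 28.6 after 15, 28.2 and 26.4 after 30, 23.8 and 24.1 after 60, 20.2 and 19.2 after 90 and 20 and 19.3 after 120 min. The 90 and 120 min libraries of Rabgef1 lay below all others, with a change of -0.47 (SE 0.0944, adjusted p = 0.0022), and its NTR at 120 min was listed at 1 in both libraries.

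The 3 list genes past the threshold as higher at 120 than at 15 min were Rabgap1l, Hps1 and Trappc3. Rabgap1l, a GTPase-activating protein, stood at 22.5 and 25.6 CPM in no4sU, then 21.9 and 23 after 15, 27.1 and 25.2 after 30, 27.6 and 30.3 after 60, 26.7 and 27.4 after 90 and 29 and 31.5 after 120 min. Its 120 min libraries lay above those of no4sU, 15, 30 and 90 min and overlapped 60 min. The change was 0.43 (SE 0.0969, adjusted p = 0.00439; 0.0707 without 15 min library A and 0.0814 without 120 min library B). Hps1, part of the exchange factor of Rab32 and Rab38, stood at 20.7 and 21.9 CPM in no4sU, then 20.8 and 19 after 15, 19 and 18.9 after 30, 21.2 and 23.5 after 60, 18.5 and 24.5 after 90 and 24.5 and 25.5 after 120 min. Its 120 min libraries were the highest, with 90 min library B next to them, and the change of 0.33 (SE 0.114, adjusted p = 0.0478) was not called by DESeq2 (adjusted p = 0.127), nor when any of 8 libraries was left out (both of 15, 30, 60 and 120 min; adjusted p 0.0589 to 0.269). Trappc3, a TRAPP subunit that acts on Rab1, stood at 63.8 and 59.5 CPM in no4sU, then 57.3 and 57.9 after 15, 60.2 and 62.5 after 30, 59.8 and 59.4 after 60, 62.6 and 59.4 after 90 and 64.3 and 69 after 120 min. Its 120 min libraries were the highest of the 12. The change of 0.21 (SE 0.0693, adjusted p = 0.037) was likewise not called by DESeq2 (adjusted p = 0.106), nor when any of the same 8 was left out (adjusted p 0.0513 to 0.289).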

How the data were processed

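The authors deposited 1 table of 17419 genes. The authors deposited estimated counts per gene and library, unscaled, made by a step the sources used here do not name. Of these, 20.4% were not whole (tolerance 1e-06), and they were rounded here. The NTR was deposited by the authors as a fraction, with a posterior maximum (used here), a posterior mean and 0.05 and 0.95 quantiles (a 90% interval), per the file headers. The deposited columns named alpha and beta, entered here as a score because no header gives their range, were not used. A deposited gene length, in bases, set the per-kilobase levels. Cutadapt, Bowtie2 2.3.0 and STAR 2.7.10b are named in the submitters' processing notes; their roles, the counting tool, strand use and genome build: not given in the sources used here. All 12 libraries were taken from columns matched to sample titles, and there were 0 columns of other samples and 0 entries without a gene.

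Members were the symbols that match the naming rule. The members and the gene lists were chosen with earlier results of these data known. Counts were tested with edgeR 4.0.16 (R 4.3.3) after filterByExpr and TMM (factors 0.97 to 1.02), in 1 fit of all 12 libraries (common biological coefficient of variation 4.44%) or, for the slope, of the 10 labelled libraries (2.7%), with Benjamini-Hochberg adjustment over all genes tested and a threshold of 0.05. The SE is the log2 change over the square root of F. CPM used TMM-scaled library sizes. A permutation test of 2 against 2 libraries cannot give an exact two-sided p below 0.333, so none was run. Pairs were tested in Python 3.11.15 by full enumeration of the signs. Errors cover the spread between libraries, not the division of reads between genes. Values per library were given for members past the threshold for 120 min against 15 min or no4sU or for the slope (there the 6 largest rises and 6 largest falls), the 4 highest and 4 lowest NTR and all pairs. Of the regulator lists, the 3 largest rises and 3 largest falls past the threshold for 120 against 15 min were named. Alternatives were DESeq2 1.42.0, its size factors, library size alone, no filter on low counts, the replicate letter as a block, only the groups compared, each library left out, the posterior mean and other count minimums. For the pairs, the difference in NTR itself in place of its logit was a further alternative. Letters did not pair the samples, so the main design has no block.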

Additional observations from a re-analysis of the deposited data

How the results depend on the processing

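With 2 libraries a group, leaving out 1 leaves an arm whose spread is assumed to equal that of the other groups. Leaving out each library in turn, the count of members called was 0 to 2 at 15 min against no4sU, 0 to 2 at 30 min, 0 to 1 at 60 min, 0 to 7 at 90 min, 1 to 13 at 120 min, 1 to 15 for 120 against 15 min and 10 to 19 for the slope. DESeq2 called 2 members when 120 min was compared with no4sU and 4 when it was compared with 15 min, and fits of only the groups compared called 0 and 16. With no4sU libraries added at time 0, 10 slopes were called. The cause of these changes was not tested, and calls over all genes were not counted for these fits. A replicate block by letter, a number the samples only share (differences A minus B correlated at -0.129 to 0.15 between groups, above 0.1 in 3 of 15), left 4, 7 and 17 members called and changed no count of calls. No called member changed direction under any alternative listed for it. Among members that were called, 87 of the slope values under other settings kept their call and 15 did not, with 35 and 7 for 120 against 15 min and 17 and 7 for 120 min against no4sU. Pairs past the threshold numbered 1 at a mean count of at least 1000, where fewer pairs qualified, 6 with all 10 labelled libraries, and 8 to 9 leaving out 1 library. With the difference in NTR itself in place of its logit, Rab5a against Rab5b passed as well. The median NTR was 0.0153 at 15 min by the posterior mean, and 0.0407 at 30 min and 0.112 at 60 min at a mean count of at least 1000. The median apparent half-life at 15 min was 540.5 min by the posterior mean, 662 min at a mean count of at least 1000 and 491.5 min over all members with a value, and at that higher count minimum it was 503 min at 30 min and 351 min at 60 min. Without 1 library of a group, the median NTR was 0.00625 to 0.00985, 0.0452 to 0.0526, 0.119 to 0.126, 0.194 to 0.236 and 0.272 to 0.302 from 15 to 120 min. Depth limits the 15 min NTR: the median width of its 90% interval over members was 0.0205 and 0.016, above the median NTR itself.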
